A study of Mus musculus with 4 samples.

Results

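The transcripts described here are those of 10 receptors by which blood stem cells home to and hold on to the bone marrow niche: the chemokine receptor Cxcr4, the integrin subunits Itga4, Itga6, Itgb1, Itgal and Itgb2, the hyaluronan receptor Cd44, the selectin ligand Selplg, and the junctional and mucin-type molecules Pecam1 and Emcn. They were chosen by name, and all 10 have values among the 12390 genes of the deposited table. Mouse bone marrow was the tissue, and the RNA came from cells in the hematopoietic stem cell gate (Lin-, Sca-1+, c-Kit+, CD48-, CD150+), about 5000 cells a library. The 4 libraries are 2 knockout libraries, titled Ddx21_CKO, from mice with floxed Ddx21 alleles and CAG-CreERT2, and 2 control libraries, titled Ddx21_fl, from mice with the floxed alleles. The series text writes the alleles of all these mice as Ddx211fl/fl, and the genotype labels are KO and WT. CAG is a promoter active in most tissues, so the Cre is not restricted to blood cells, and CreERT2 is a Cre recombinase that tamoxifen activates. The sources used here give no tamoxifen dosing or time, age or number of animals per library, so the spread between libraries of a group may be technical. In the fit to the deposited values, p-values rest on the spread typical of genes at a similar level, not on each gene's own spread. The question is how receptor transcripts in the sorted cells differ between libraries labelled as knockout of Ddx21, an RNA helicase of the nucleolus, and control libraries.

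Homing and retention run in steps. Selplg encodes PSGL-1, a sialomucin that binds selectins and lets cells roll on vessel walls, and Cd44 encodes a receptor for hyaluronan in the marrow matrix that can also carry selectin-binding glycans. CXCR4 responds to CXCL12 made by marrow stroma, signals through Gi proteins and switches integrins to their binding state. Itga4 and Itgb1 form VLA-4, which binds VCAM-1 and fibronectin, Itga6 and Itgb1 form a laminin receptor (VLA-6), and Itgal and Itgb2 form LFA-1, which binds ICAM-1. Pecam1 encodes a homophilic adhesion molecule of platelets, leukocytes and endothelium, and Emcn encodes endomucin, a sialomucin of endothelium and of blood stem cells.

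The libraries hold between 43198649 and 62853208 recovered reads. Ddx21 stood at 6.20 and 6.60 RPKM (reads scaled by transcript length and by library total) in the knockout libraries and at 10.95 and 12.1 RPKM in the control libraries, with a log2 fold change of -0.76 (SE 0.30; limma, adjusted p = 0.158). It was -1.08 after rescaling (limma, adjusted p = 0.0944) and -1.22 with voom on recovered reads (adjusted p = 0.0326), so the transcript was lower in the libraries labelled knockout but still present, and whether it was called depended on the setting. One value stands for all exons of the gene, so the floxed exons cannot be seen by themselves. Knockout replicate 2 stands apart in scale: its median log2 difference from the control mean over all tested genes was 0.50, against 0.12 for knockout replicate 1. Over all tested genes the median log2 fold change, knockout over control, was 0.31 in the deposited values and 0.01 after the libraries were rescaled to a common median. Marker sums here and below are of deposited values, so they carry the scale of each library. Stem cell markers (9 of 10 with values) summed to 279 and 353 RPKM in the knockout libraries and to 181 and 228 RPKM in the control libraries. Neutrophil and monocyte markers summed to 16123 and 9889 RPKM in the knockout libraries and to 25479 and 25677 RPKM in the control libraries, so receptor levels cannot be assigned to stem cells alone. In bulk libraries fewer cells of a type and less RNA per cell cannot be told apart.

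None of the 10 receptor transcripts passed the test between knockout and control libraries, against 3.33% of 11742 tested genes called higher, 0.86% called lower and 4.19% called either way. The test was limma's trend fit to log2(RPKM + 1) with Benjamini-Hochberg adjustment, and the smallest adjusted p among the 10 was 0.187, for Pecam1. At an unadjusted p under 0.05, 2 of the 10 were higher in knockout, Pecam1 and Emcn. At that threshold 1620 of the 11742 tested genes were higher and 288 lower, so this count shows nothing particular to the receptors. Voom on reads recovered from the RPKM values called 0 of the 10 and 0.614% of all genes, and limma on rescaled libraries called 0 of the 10 and 0.00856% of all genes. The 10 fold changes were above 0 in the deposited values, with a median log2 fold change of 0.19 against 0.31 for all tested genes. After rescaling 4 were above 0 and 6 below, with a median of -0.14 against 0.01. Knockout replicate 2 held the highest value of the 4 libraries for 10 of the 10 receptors, as it did for 78.6% of all tested genes.

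**Figure D1:**
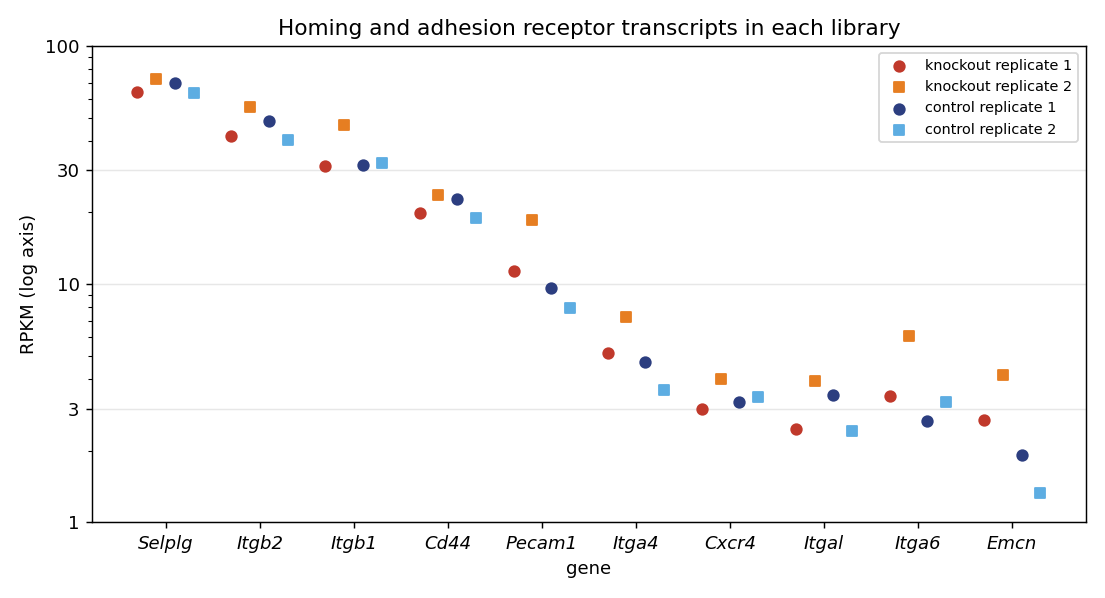
RPKM (log axis) of each receptor transcript in the knockout libraries (red and orange) and the control libraries (blues), 1 point per library, ordered by control mean. The orange squares of knockout replicate 2 are the highest point for each gene, and Pecam1, Itga4, Itga6 and Emcn have both knockout points above both control points.

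Per length, the receptors ranged from Selplg at 68.3 ± 5.64 RPKM in knockout and 66.6 ± 4.48 RPKM in control (SD, n = 2 each) down to Itgal in knockout, at 3.19 ± 1.03 RPKM, and Emcn in control, at 1.62 ± 0.417 RPKM. In control libraries the order of level was Selplg, Itgb2, Itgb1, Cd44, Pecam1, Itga4, Cxcr4, Itgal, Itga6 and Emcn, and the libraries of neighbours overlapped for Cxcr4 and Itgal and for Itgal and Itga6. In knockout libraries the order was Selplg, Itgb2, Itgb1, Cd44, Pecam1, Itga4, Itga6, Cxcr4, Emcn and Itgal. There the libraries overlapped for Itgb2 and Itgb1 and between each neighbouring pair from Itga4 to Itgal. The beta subunits thus stood well above the alpha subunits they pair with in all libraries. RPKM values were scaled by the longest annotated transcript, which matters most for Emcn: scaled by its principal transcript of 1357 bases in place of 3521 bases, its mean level would be 8.90 RPKM in knockout and 4.21 RPKM in control. Selplg would stand at 85.2 RPKM in knockout and 83.1 RPKM in control by the same change. Fold changes here were fitted to the deposited values.

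Cxcr4 and Emcn lie near the opposite ends of the fold changes, and their promoter windows are shown for that reason. Each window runs from 250 bases before to 50 bases after the annotated start (RefSeq, GRCm38.p6, 5′ to 3′ on the gene's strand). Capitals mark matches, on either strand, to GGAAG (the core bound by ETS factors), GATAA (GATA factors), GGGCGG (GC box), CCAAT and TATAAA.
Cxcr4 promoter: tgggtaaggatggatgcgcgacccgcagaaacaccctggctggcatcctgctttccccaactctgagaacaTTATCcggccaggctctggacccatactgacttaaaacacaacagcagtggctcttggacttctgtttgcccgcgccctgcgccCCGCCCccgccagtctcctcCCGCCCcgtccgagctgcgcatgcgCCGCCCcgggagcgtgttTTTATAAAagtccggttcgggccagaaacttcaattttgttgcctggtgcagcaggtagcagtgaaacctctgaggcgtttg
Emcn promoter: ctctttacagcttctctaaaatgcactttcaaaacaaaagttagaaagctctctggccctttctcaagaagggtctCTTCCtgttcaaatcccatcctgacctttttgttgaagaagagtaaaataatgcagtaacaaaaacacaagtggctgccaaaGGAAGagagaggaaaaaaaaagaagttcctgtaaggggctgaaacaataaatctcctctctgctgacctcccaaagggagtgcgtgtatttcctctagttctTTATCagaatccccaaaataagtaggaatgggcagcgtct
The Cxcr4 window (chr1:128592250-128592549, minus strand) holds 3 GC boxes, 1 GATAA and a TATAAA that matches on both strands through an overlapping copy, with 20 CG pairs and 59.3% G and C. The Emcn window (chr3:137340828-137341127, plus strand) holds 2 GGAAG and 1 GATAA, with 2 CG pairs and 41.0% G and C. Over all 32851 windows of this length the median was 7 CG pairs and 52.7% G and C. Of those windows 71.4% hold GGAAG, 25.4% GATAA, 35.7% GGGCGG, 37.4% CCAAT and 13.6% TATAAA, so each motif is common by itself. Promoter windows were matched for 5 of the 10 receptors, the others being Itga4, Cd44 and Itgb1, and a match is a description of the letters only.

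The transcript of the chemokine receptor Cxcr4 (ENSMUSG00000045382, chromosome 1, 128588199 to 128592293, minus strand; all gene positions are on mm10) had levels of 2.98 and 3.99 RPKM in knockout libraries and 3.21 and 3.34 RPKM in control libraries. The control values lie between the knockout values, so the groups overlap. Its log2 fold change was 0.06 (SE 0.34, adjusted p = 0.908), with a 95% interval from -0.60 to 0.72 that does not by itself show equal levels. Between 234 and 381 reads a library lie behind these values, the fewest of the receptors in the lowest library. After rescaling its values were 3.05 and 3.04 RPKM in knockout and 3.56 and 3.86 RPKM in control, and the log2 fold change was -0.22 (interval -0.51 to 0.07, adjusted p = 0.395).

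Itga4 and Itga6, the alpha subunits among the 10 that pair with Itgb1, had higher deposited values in both knockout libraries, and neither was called. Itga4 (ENSMUSG00000027009, chromosome 2, 79255426 to 79333123, plus strand) stood at 5.16 and 7.24 RPKM in knockout and at 4.73 and 3.60 RPKM in control, without overlap, a log2 fold change of 0.47 with an SE of 0.33 (adjusted p = 0.419). For Itga4 it was 0.17 after rescaling, 0.26 without knockout replicate 2 and 0.32 without control replicate 2. Itga6 (ENSMUSG00000027111, chromosome 2, 71745616 to 71858416, plus strand) stood at 3.40 and 6.03 RPKM in knockout and at 2.66 and 3.19 RPKM in control, a log2 fold change of 0.51 with an SE of 0.34 (adjusted p = 0.406). The gap between the groups is narrow, and after rescaling they overlap. For Itga6 the log2 fold change was 0.22 after rescaling, 0.17 without knockout replicate 2 and 0.84 without knockout replicate 1. The shared partner Itgb1 (ENSMUSG00000025809, chromosome 8, 128685654 to 128733200, plus strand) stood at 31.4 and 46.5 RPKM in knockout and at 31.5 and 32.4 RPKM in control. Only its knockout replicate 2 is high, and the other three libraries lie close together (log2 fold change 0.25, SE 0.21, adjusted p = 0.464; -0.09 after rescaling).

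For the subunits of the leukocyte integrin LFA-1 the groups overlapped in the deposited values. Itgal (ENSMUSG00000030830, chromosome 7, 127296260 to 127335138, plus strand) stood at 2.46 and 3.92 RPKM in knockout and at 3.44 and 2.41 RPKM in control. Itgb2 (ENSMUSG00000000290, chromosome 10, 77530252 to 77565708, plus strand) stood at 41.8 and 55.6 RPKM in knockout and at 48.4 and 40.3 RPKM in control. In both genes the highest and the lowest values interleave between the genotypes, and the log2 fold changes were 0.08 (SE 0.33, adjusted p = 0.866) for Itgal and 0.12 (SE 0.20, adjusted p = 0.673) for Itgb2. After rescaling they were -0.19 for Itgal, whose groups still overlapped, and -0.23 for Itgb2, which stood at 42.8 and 42.5 RPKM in knockout and at 53.6 and 46.6 RPKM in control, without overlap (limma, adjusted p = 0.438).

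Cd44 (ENSMUSG00000005087, chromosome 2, 102811141 to 102901665, minus strand) stood at 19.9 and 23.7 RPKM in knockout and at 22.7 and 18.9 RPKM in control, a log2 fold change of 0.07 with an SE of 0.23 (adjusted p = 0.847). Selplg (ENSMUSG00000048163, chromosome 5, 113818536 to 113832644, minus strand), the most abundant of the 10, stood at 64.3 and 72.3 RPKM in knockout and at 69.8 and 63.4 RPKM in control, a log2 fold change of 0.04 with an SE of 0.19 (adjusted p = 0.900). The groups of both genes overlap in the deposited values. After rescaling both knockout libraries lay below both control libraries, with 20.4 and 18.1 RPKM in knockout against 25.1 and 21.8 RPKM in control for Cd44. Selplg then stood at 65.8 and 55.2 RPKM in knockout and at 77.3 and 73.3 RPKM in control. The rescaled log2 fold changes were -0.27 (interval -0.60 to 0.05) for Cd44 and -0.32 (interval -0.70 to 0.07) for Selplg, neither past the threshold (adjusted p = 0.363 and 0.367 with limma). Mature myeloid cells, which the Lin- gate is meant to remove, carry both receptors. The neutrophil and monocyte markers given above (10 of 10 with values, 0 called higher and 8 lower) summed lower in both knockout libraries. The share of all tested genes called lower was 0.86%. Csf1r and Ccr2 on that list overlapped between the groups and were not called. After rescaling limma called none of the 10, and voom called only Ly6g (adjusted p = 0.0331). The part of mature myeloid cells in the Cd44 and Selplg values was not tested.

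Pecam1 and Emcn had the highest fold changes among the 10. Pecam1 (ENSMUSG00000020717, chromosome 11, 106654217 to 106750628, minus strand) stood at 11.4 and 18.5 RPKM in the knockout libraries and at 9.60 and 7.96 RPKM in the control libraries, higher in both knockout libraries. Its log2 fold change was 0.67 (SE 0.28, adjusted p = 0.187), 0.34 after rescaling (adjusted p = 0.320) and 0.34 without knockout replicate 2. Emcn (ENSMUSG00000054690, chromosome 3, 137341067 to 137432185, plus strand) stood at 2.69 and 4.17 RPKM in knockout and at 1.92 and 1.33 RPKM in control, again without overlap. Its log2 fold change was 0.75 (SE 0.32, adjusted p = 0.219), 0.49 after rescaling (adjusted p = 0.244) and 0.50 without knockout replicate 2. Both genes are also endothelial, and of 10 endothelial markers that leave these genes out 2 had values analysed here, Tie1 and Vwf, which stem cells and megakaryocytes express too. They summed to 14.0 and 27.9 RPKM in knockout and to 10.7 and 12.4 RPKM in control. After rescaling the log2 fold changes were 0.39 for Tie1, whose groups then overlapped, and 0.35 for Vwf, whose groups did not. Megakaryocyte and platelet markers (7 of 10 with values, 5 called higher and 0 lower) summed to 511 and 820 RPKM in knockout and to 390 and 355 RPKM in control. Bone and mesenchymal markers (7 of 10 with values, 7 called higher) summed to 4877 and 1308 RPKM in knockout and to 346 and 207 RPKM in control. The share of all tested genes called higher in that fit was 3.33%. After rescaling limma called none of the bone or megakaryocyte markers, and voom called only F2rl2 among them (adjusted p = 0.0463). The part of any of these cells in the receptor values was not tested.

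**Figure D2:**
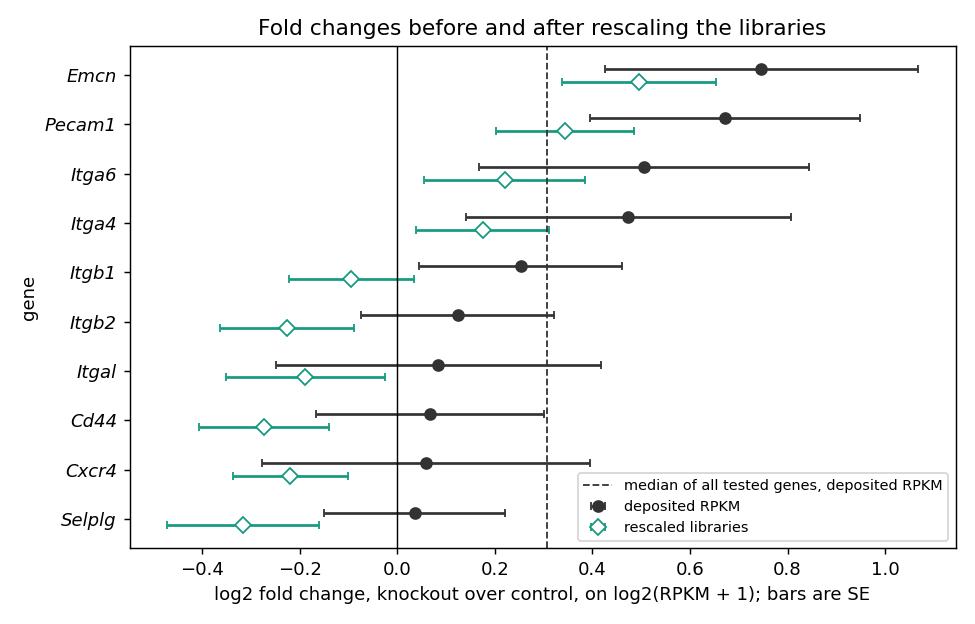
Log2 fold change of each receptor transcript, knockout over control, from deposited RPKM (filled circles) and rescaled libraries (open diamonds), with SE bars. The dashed line is the median of all tested genes in the deposited values, 0.31; 4 genes lie above it and 6 below it, and rescaling shifts each gene to the left by a similar amount.

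Set beside the median fold change of all tested genes, 4 receptors lay above it (Pecam1, Emcn, Itga4 and Itga6) and 6 below it. That is near the even split that the median gives over all tested genes, and it shows nothing particular to the receptors. Rescaling moves that median to near 0, so the signs after rescaling repeat the same split. In the deposited values the groups did not overlap for 4 of the 10, against 62.9% of all tested genes. Each of the 4 was higher in knockout, as were 55.5% of all tested genes. After rescaling both knockout libraries lay above both controls for 3 of the 10 (Pecam1, Emcn and Itga4), against 28.2% of genes, and below them for 4 (Cxcr4, Itgb2, Cd44 and Selplg), against 26.4%. These shares are near the background, and no receptor passed a test on either scale. Leaving out knockout replicate 1 gave 5 receptors called higher, Pecam1, Emcn, Itga4, Itga6 and Itgb1, in a setting that called 54.3% of all tested genes higher.

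A ratio of genes within a library does not depend on library scaling, so subunit balance was compared that way. With 2 libraries against 2 the smallest two-sided exact permutation p is 0.333, so no ratio can pass a threshold of 0.05. The Itga6 to Itgb1 ratio was 0.108 and 0.130 in knockout and 0.0844 and 0.0986 in control, a log2 difference of 0.38 (exact permutation p = 0.333). The Itga4 to Itgb1 ratio was 0.164 and 0.156 in knockout and 0.150 and 0.111 in control, a log2 difference of 0.31 (exact permutation p = 0.333). In both pairs the knockout libraries lay above the control libraries, so there was more alpha subunit RNA per beta subunit RNA in these 2 knockout libraries. Both ratios are taken over Itgb1, so they are not independent of each other. With an exact permutation p of 0.333 for each, the separation is a description of these libraries. The Itga4 to Itgb1 difference was 0.09 without control replicate 2 and 0.53 without control replicate 1, and the Itga6 to Itgb1 difference was 0.25 without knockout replicate 2.

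For the LFA-1 pair the groups overlapped: Itgal to Itgb2 was 0.0589 and 0.0705 in knockout and 0.0711 and 0.0598 in control, a log2 difference of -0.02. The Itgb1 to Itgb2 ratio was 0.752 and 0.836 in knockout and 0.651 and 0.802 in control, and the Itga4 to Itga6 ratio was 1.52 and 1.20 in knockout and 1.78 and 1.13 in control, with overlap in both. Pecam1 to Selplg, a pair that differs in fold change, was 0.177 and 0.256 in knockout and 0.138 and 0.125 in control, a log2 difference of 0.69 (exact permutation p = 0.333). It was 0.43 without knockout replicate 2 and 0.96 without knockout replicate 1, and since the pair was taken for its differing fold changes the size of this gap is a description.

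**Figure D3:**
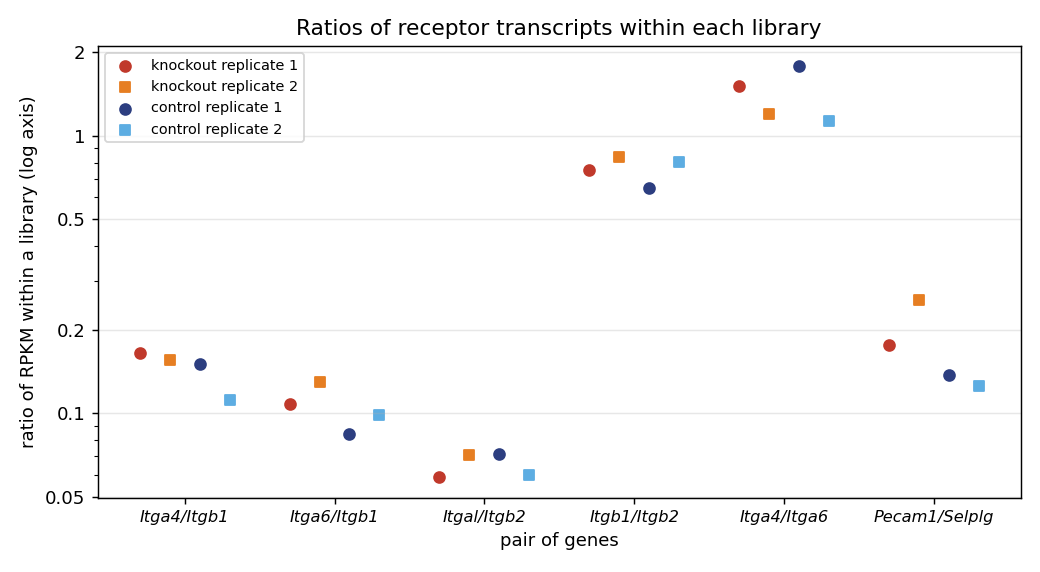
Ratio of RPKM values within each library (log axis) for 6 pairs of receptor genes, 1 point per library, knockout in red and orange and control in blues. Both knockout points lie above both control points for Itga4/Itgb1, Itga6/Itgb1 and Pecam1/Selplg, and the points interleave for the other pairs.

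Around the receptors, 13 of 91 tested genes on 7 lists of homing and adhesion genes rose in knockout libraries and 0 fell, with 78 not called. Over all tested genes 3.33% were called higher and 0.86% lower, and the count of each list below is to be read beside those shares. After rescaling limma called 0 of them and voom called 2 in all, Rgs1 higher and Cxcr2 lower. The lists were drawn up with earlier results of these data known. Among the 13, S1pr1 and Cd200 reached the mean of 1 RPKM needed for testing only through the knockout libraries, so their calls are a description. Of 21 integrin genes outside the 10, 5 had values analysed here and 1 rose (list median log2 fold change 0.78): Itga2b, the platelet integrin subunit CD41 that also marks stem cells, at 67.1 and 133 RPKM in knockout and 51.8 and 57.8 RPKM in control (0.78, SE 0.18, adjusted p = 0.00162). Its partner Itgb3 (0.88, adjusted p = 0.125) and Itgb7, the other beta partner of Itga4 (0.91, adjusted p = 0.0787), were not past the threshold and are named after their values were seen. Itga2b is also on the megakaryocyte list given above.

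Of 18 tested genes that activate integrins or link them to actin 0 rose and 0 fell, with a list median of 0.26 against 0.31 over all genes. Named for the lowest p in the list are Fyb, an adaptor between T cell receptor or platelet signals and integrins (0.52, SE 0.24, adjusted p = 0.260), and Ptk2b, the focal adhesion kinase relative Pyk2 (0.58, SE 0.27, adjusted p = 0.272). At an unadjusted p under 0.05 both are higher, as were 1620 of all 11742 tested genes, and voom called neither.

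Of 9 tested chemokine and lipid receptors and partners 1 rose and 0 fell (list median 0.34). It was S1pr1, the sphingosine 1-phosphate receptor that draws cells out of tissue. S1pr1 stood at 1.35 and 2.15 RPKM in knockout and 0.533 and 0.509 RPKM in control. Its log2 fold change was 0.84 (SE 0.26, limma adjusted p = 0.0388). S1pr1 reached the mean of 1 RPKM needed for testing only through the knockout libraries. Cxcr2, a chemokine receptor abundant in neutrophils, was at 5.31 and 7.05 RPKM in knockout and at 12.0 and 9.08 RPKM in control, a log2 fold change of -0.69 (limma adjusted p = 0.236; voom adjusted p = 0.0438), named after its values were seen. The summed level of the neutrophil and monocyte markers given above was lower in the same libraries, and the part of such cells in the Cxcr2 values was not tested.

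Of 23 tested genes of CXCR4 signal transduction and damping 1 rose and 0 fell, with a list median of 0.16. It was Rgs1, a GTPase activator that damps Gi signals from chemokine receptors, at 14.4 and 19.2 RPKM in knockout and 7.23 and 6.42 RPKM in control. Its log2 fold change was 1.18 (SE 0.28, adjusted p = 0.00187), 0.85 after rescaling, and its voom adjusted p was 0.0327. Both knockout libraries lay above both control libraries, as in 55.5% of all tested genes.

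Of 9 tested niche ligands bound by the receptors 3 rose and 0 fell (list median 0.42). These are transcripts in the libraries of sorted cells, and the niche itself was not profiled. F11r, the junctional molecule JAM-A that LFA-1 can bind, stood at 13.2 and 22.9 RPKM in knockout and 8.83 and 8.37 RPKM in control (0.94, SE 0.27, adjusted p = 0.0180). Selp, the selectin that PSGL-1 binds and that platelets carry, stood at 16.5 and 29.4 RPKM in knockout and 11.3 and 12.0 RPKM in control (0.87, SE 0.25, adjusted p = 0.0186). Like Itga2b, Selp is also on the megakaryocyte list given above. Icam1, the main LFA-1 ligand, stood at 9.32 and 14.0 RPKM in knockout and 4.62 and 5.25 RPKM in control (1.07, SE 0.31, adjusted p = 0.0190). In all 3 both knockout libraries exceeded both controls, as in 55.5% of all tested genes. The 3 were named for their calls on these same values, so that separation is a description. The receptor transcripts Itgal, Itgb2 and Selplg were not called. Vcam1, the VLA-4 ligand, is named after its values were seen. It stood at 42.8 and 30.6 RPKM in knockout and at 52.9 and 40.4 RPKM in control, with overlap. Its log2 fold change was -0.35 (limma adjusted p = 0.360). After rescaling it was -0.69 without overlap between the groups (limma adjusted p = 0.333).

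Of 13 tested genes that build selectin-binding glycans 1 rose and 0 fell (list median 0.41). It was Tpst2, a sulfotransferase that modifies tyrosines such as those of PSGL-1, at 60.4 and 81.7 RPKM in knockout and 39.1 and 52.5 RPKM in control (0.62, SE 0.19, adjusted p = 0.0333). Of 14 tested sialomucins and other adhesion molecules 6 rose and 0 fell (list median 0.45). Cd81, a tetraspanin, stood at 283 and 341 RPKM in knockout and 174 and 173 RPKM in control (0.84, SE 0.16, adjusted p = 4.40e-05). The endothelial and stem cell molecule Esam (0.86, adjusted p = 0.00324), Cd200 (1.11, adjusted p = 0.00398) and the laminin receptor Bcam (1.05, adjusted p = 0.0249) rose with it, as did Cd34 and Ninj1. Cd200 stood at 2.72 and 2.12 RPKM in knockout and at 0.59 and 0.57 RPKM in control. Like S1pr1, it reached the mean needed for testing only through the knockout libraries. Limma gave these p-values with genotype as its sole term, and leaving out either control library left 0 list genes called higher, leaving out knockout replicate 2 left 1, and leaving out knockout replicate 1 gave 52.

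**Figure D4:**
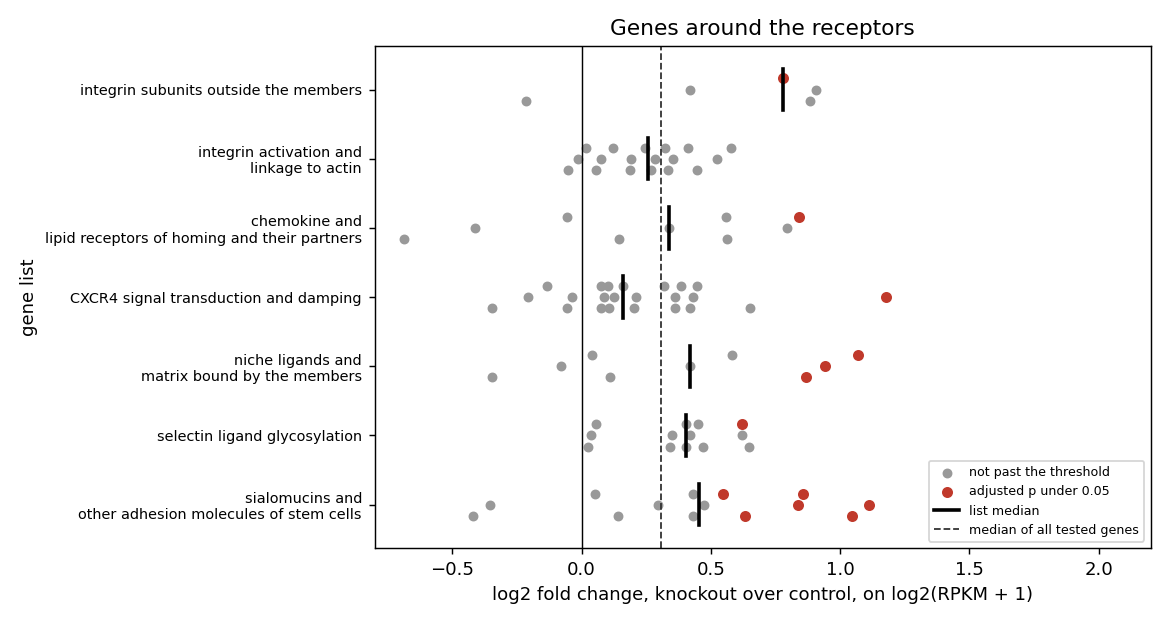
Log2 fold change, knockout over control, of each tested gene on the 7 lists, with called genes in red, other genes in grey, the list median as a black bar and the median of all tested genes (0.31) as a dashed line. The 13 red points lie right of the dashed line, and grey points lie on either side of it in each list.

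**Figure D5:**
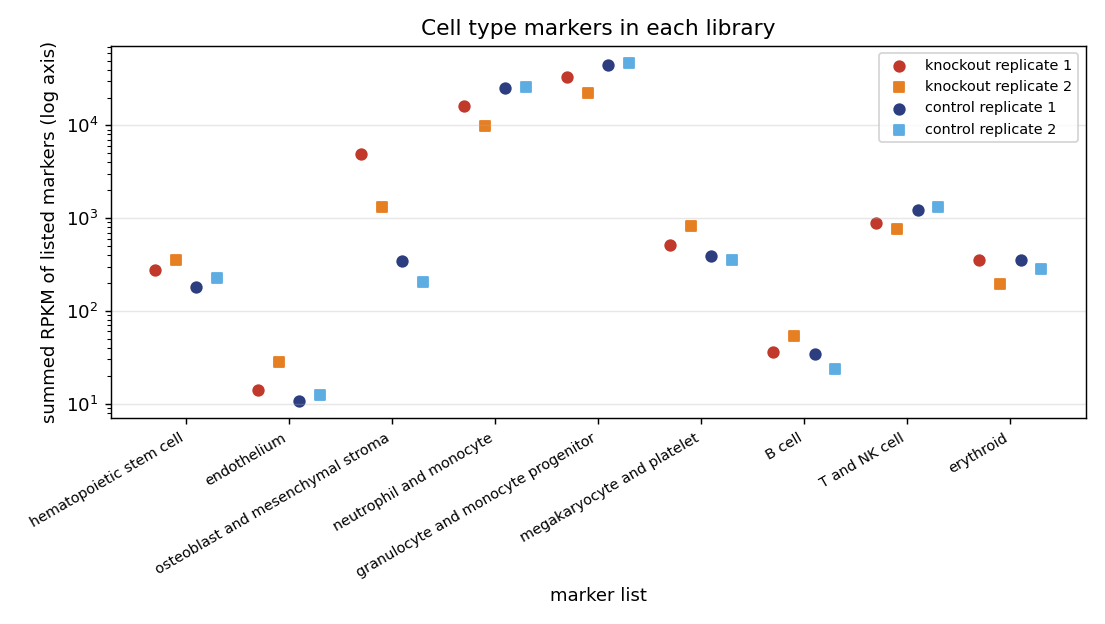
Summed RPKM (log axis) of the markers with values on each cell type list, 1 point per library. Knockout libraries lie below control libraries for the neutrophil and progenitor lists and above them for the bone and megakaryocyte lists, with knockout replicate 1 highest for bone markers and knockout replicate 2 for megakaryocyte markers.

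Among the remaining cell types, granulocyte and monocyte progenitor markers (7 of 7 with values, 0 called higher and 5 lower) summed to 33637 and 22332 RPKM in knockout and to 45163 and 47354 RPKM in control. Of 8 B cell markers 5 had values, summing to 36.4 and 53.8 RPKM in knockout and to 34.5 and 23.6 RPKM in control, with 0 called. Of 9 T and NK cell markers 3 had values and the CD3 genes had none analysed here, so the sum rests mostly on Nkg7, a granule gene also expressed by myeloid progenitors. Erythroid markers (8 of 8 with values, 0 called higher and 1 lower) summed to 351 and 193 RPKM in knockout and to 349 and 285 RPKM in control. The shares of all tested genes called were 3.33% higher and 0.86% lower. Neither voom nor limma on rescaled libraries called a marker of these progenitor, B cell, T and NK cell or erythroid lists.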

How the data were processed

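The authors deposited 1 table of RPKM values, 12390 genes by 4 libraries, and the unit was identified here from the values: RPKM times the longest GENCODE M21 transcript gave whole reads, within 0.1, for 99.4%, 99.39%, 99.35% and 99.41% of values. A Smart-Seq kit was used, per the labels' protocols, and reads were placed on mm10 (submitters' processing notes). The sources used here name no aligner, counter or strand setting. Itga4, Itga6 and Cd44 overlap other annotated genes, whose reads may be shared. Genes without reads stand at 0.001, and the lowest maximum over libraries is 1.0063 RPKM. Symbols matched 12381 IDs. Control replicates differed beyond sampling noise (chi-square per degree of freedom 48.5; knockout 150), so each library counts as 1 sample.

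Limma 3.58.1 (R 4.3.3) with a mean-variance trend was fitted to log2(RPKM + 1) over the 11742 genes whose mean reached 1 RPKM, with genotype as the sole term and 2 residual degrees of freedom, calling Benjamini-Hochberg adjusted p under 0.05. Its prior degrees of freedom were infinite, so spread came from the trend. P-values are therefore too small for genes with wide replicates and too large for genes with close ones. Fold changes understate low genes. Rescaling divided each library by its median ratio to the geometric mean over genes above 1 RPKM in all libraries, and voom used recovered reads. The fit was also run on simulated reads without the shifts in scale between libraries seen here, so that run cannot show how it behaves on these data. Members and lists were chosen with earlier results of these data known. Named genes were the 10 receptors, Ddx21, and per list up to 4 called genes by p or, with none called, the 2 smallest p.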

Additional observations from a re-analysis of the deposited data

How the results depend on the processing

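Of 100 member results under 10 alternatives, 73 kept their direction and side of the threshold, 22 turned in direction and 5 passed the threshold. Rescaling turned Cxcr4 to -0.22, Itgb1 to -0.094, Itgal to -0.19, Itgb2 to -0.23, Cd44 to -0.27 and Selplg to -0.32, and voom gave -0.29, -0.10, -0.23, -0.23, -0.28 and -0.31 in that order. Leaving out 1 library gave log2 fold changes from -0.10 to 0.22 for Cxcr4, -0.023 to 0.53 for Itgb1, -0.17 to 0.34 for Itgal, -0.079 to 0.33 for Itgb2, -0.058 to 0.19 for Cd44 and -0.048 to 0.12 for Selplg, and from 0.26 to 0.68 for Itga4 and 0.17 to 0.84 for Itga6. It gave differences from -0.15 to 0.11 for Itgal/Itgb2, -0.018 to 0.28 for Itgb1/Itgb2 and -0.40 to 0.26 for Itga4/Itga6. Leaving out 1 library called 0 to 5 members higher, 27 to 6381 genes higher and 5 to 526 lower over the table, and 0 to 52 list genes higher and 0 to 3 lower. The highest counts came without knockout replicate 1. Over the table rescaling called 1 gene higher and 0 lower (954 and 890 at an unadjusted p under 0.05), voom 50 and 22, the fit without a trend 52 lower, and the replicate block 175 and 64. Of list genes rescaling called 0 higher, voom 1 higher and 1 lower, and the replicate block 4 higher. The replicate numbers name no shared animal or day, and same-numbered deviations correlated at 0.07 over genes, so the block is not taken as a pairing. The cause of these shifts was not tested. Depth limits Cxcr4 and Emcn most, at 234 to 640 reads a library.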
